A study of Mus musculus with 3 samples.

Results

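Growth factors that keep myeloid cells alive and direct their maturation act through a small set of surface receptors, and 8 of the receptor chains are described here in the peripheral blood (PB) of naive and leukemic mice. The chains were chosen by name from the 32285 genes of the feature table: Csf1r, Csf2ra, Csf2rb, Csf2rb2, Csf3r, Il3ra, Il6ra and Il6st. All 8 had UMIs in each of the 3 libraries. A UMI is a unique molecular identifier, so that 1 UMI stands for 1 captured transcript.

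Csf1r encodes the receptor tyrosine kinase for M-CSF and IL-34 on which monocytes and macrophages depend, and Csf3r encodes the receptor for G-CSF, the main growth factor of neutrophils. The GM-CSF and IL-3 receptors pair a ligand-specific alpha chain (Csf2ra or Il3ra) with the common beta chain Csf2rb, and mice carry a further beta chain, Csf2rb2, that serves IL-3 alone. IL-6 binds Il6ra, which signals through gp130, the product of Il6st, a chain shared with the receptors for LIF, oncostatin M and IL-11. The cytokine receptors of this group signal through JAK kinases and STAT factors.

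PB leukocytes came from naive wild type BALB/c mice and from mice of the same genotype engrafted with BBC2 cells, sampled 11 days (D11) and 14 days (D14) after transplantation. BBC2 is a single cell line of SCLL, the stem cell leukemia/lymphoma syndrome driven by FGFR1 fusion kinases. It grew out of stem cells transduced with BCR-FGFR1 and gives a pro-B-cell-like leukemia. There was 1 library per condition, and the sources used here do not give the number of mice in each, so a difference between conditions and a difference between libraries cannot be told apart and no test was made. The numbers in brackets are exact 95% intervals and cover counting error only.

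The naive, D11 and D14 libraries held 30362408, 57640396 and 65861863 UMIs, and 3811, 4567 and 4414 barcodes were kept. Pairs of libraries shared 3 to 5 kept barcode sequences. Each barcode was placed in a cell class by fixed lists of 6 markers that hold none of the receptor chains, which left 8.10% to 10.6% of kept barcodes in no class. The non-classical monocyte gate (ncMono) took 120, 194 and 611 barcodes in the naive, D11 and D14 libraries, the classical monocyte gate (cMono) took 142, 245 and 131, and the neutrophil gate took 1267, 1476 and 1130. In these 3 classes, all 6 markers of the class had UMIs in every library. The gates select on these markers, so this is no check of class identity. The neutrophil class also held UMIs of all 6 ncMono and all 6 cMono markers in every library. Immature neutrophils, gated on secondary granule genes such as Ltf, Camp and Ngp, numbered 13, 102 and 159. The gated neutrophils also carried more of these granule transcripts in leukemia, with a summed level of the 6 markers of 1180 CPM in naive, 6093 CPM at D11 and 16738 CPM at D14. CPM (counts per 1e6) scales the UMIs of a gene to the UMIs summed over the barcodes of a class in a library. The captured fraction of transcripts is not known for any gene, and so levels were compared between libraries and classes for the same chain and not between chains.

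The chains lie apart in the GRCm38 genome except for the beta chains. Csf2rb (ENSMUSG00000071713, chr15:78325752-78353847, plus strand) and Csf2rb2 (ENSMUSG00000071714, chr15:78282507-78305721, minus strand) are 20030 bases from each other. Their transcripts share sequence: 8.19% of the 90-base windows of Csf2rb and 8.47% of those of Csf2rb2 occur in the other gene, but none lies in the last 500 bases, near which 3′ libraries are read. Reads from outside these last bases could fall in shared windows, so the split of UMIs between the beta chains carries some uncertainty.

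RefSeq promoter windows, the 250 bases before the transcription start in GRCm38.p6, were examined for 6 of the 8 chains. No window of Csf1r or Csf2rb was examined, so the motif counts say nothing about these chains. Windows are shown for Csf2ra and Csf2rb2, which moved in opposite directions in ncMonos, with 30 bases around the match for Csf3r and Il6ra. Capitals mark the core motif of PU.1 (GAGGAA, or TTCCTC on the other strand), the product of Spi1. It is listed here among the factors known to bind the Csf1r or Csf3r loci.
Csf2ra (chr19:61228419-61228668, minus strand): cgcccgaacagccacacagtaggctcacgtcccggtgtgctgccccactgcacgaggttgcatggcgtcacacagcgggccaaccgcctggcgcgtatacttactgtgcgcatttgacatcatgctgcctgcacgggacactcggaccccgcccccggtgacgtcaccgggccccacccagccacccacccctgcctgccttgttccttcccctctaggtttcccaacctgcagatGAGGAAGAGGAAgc
Csf2rb2 (chr15:78305722-78305971, minus strand): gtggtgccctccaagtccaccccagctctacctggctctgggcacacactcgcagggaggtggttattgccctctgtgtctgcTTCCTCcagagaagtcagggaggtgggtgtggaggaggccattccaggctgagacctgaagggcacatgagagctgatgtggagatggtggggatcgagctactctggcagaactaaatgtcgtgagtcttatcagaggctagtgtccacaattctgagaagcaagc
Csf3r (chr4:126024561-126024590, plus strand): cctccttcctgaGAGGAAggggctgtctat
Il6ra (chr3:89913249-89913278, minus strand): cttcagcaccggTTCCTCaaatgtttcact
The core was present in 4 of the 6 windows, with adjacent copies 14 and 8 bases before the start of Csf2ra, and with matches 167 bases before that of Csf2rb2, 86 before that of Csf3r and 70 before that of Il6ra. It was present in 23.3% of all 32851 windows of that length. The C/EBP letters TTGCNNAA were present in 1 of the 6 windows, that of Il3ra, and in 9.56% of all windows. These distances are from the RefSeq start. GENCODE places the starts of Csf3r, Csf2ra and Il3ra farther upstream. The Csf3r match and the last bases of the Csf2ra window thus lie inside the gene positions given here. So does most of the Il3ra window, with its C/EBP letters. A match is a run of letters and not a measured binding site.

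Within the myeloid classes, the receptor chains that changed by D14 were Csf3r, which fell in neutrophils and in both monocyte classes, Csf1r, which fell in neutrophils, Csf2ra, which fell in ncMonos, Csf2rb, which rose in both monocyte classes, and Csf2rb2, which rose in all 3. A change was called where a level differed by at least 1.5-fold and the interval of the ratio left out 1, among genes whose mean over the compared libraries reached 10 CPM. In ncMonos at D14, 7 chains could be examined, of which 2 were called higher and 2 lower, beside 7.83% and 9.02% of 7907 genes. In cMonos, 8 could be examined, with 2 higher and 1 lower, beside 12.7% and 9.90% of 7913 genes. In neutrophils, 6 could be examined, with 1 higher and 2 lower, beside 13% and 26.3% of 6089 genes.

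At D11, fewer chains were called. Of the chains examined, 0 of 6 were called in ncMonos, with Csf2rb2, whose ratio is given with its levels, left out for a mean under 10 CPM, and 5.53% of all genes were called higher and 8.61% lower. In neutrophils, 0 of 6 were called beside 5.18% and 9.72% of all genes. In cMonos, 1 of 8 was called higher (Csf2rb2) and 0 lower, beside 4.65% and 5.04%. The median log2 ratio of all genes examined lay between -0.23 and 0.05 in these comparisons.

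**Figure D1:**
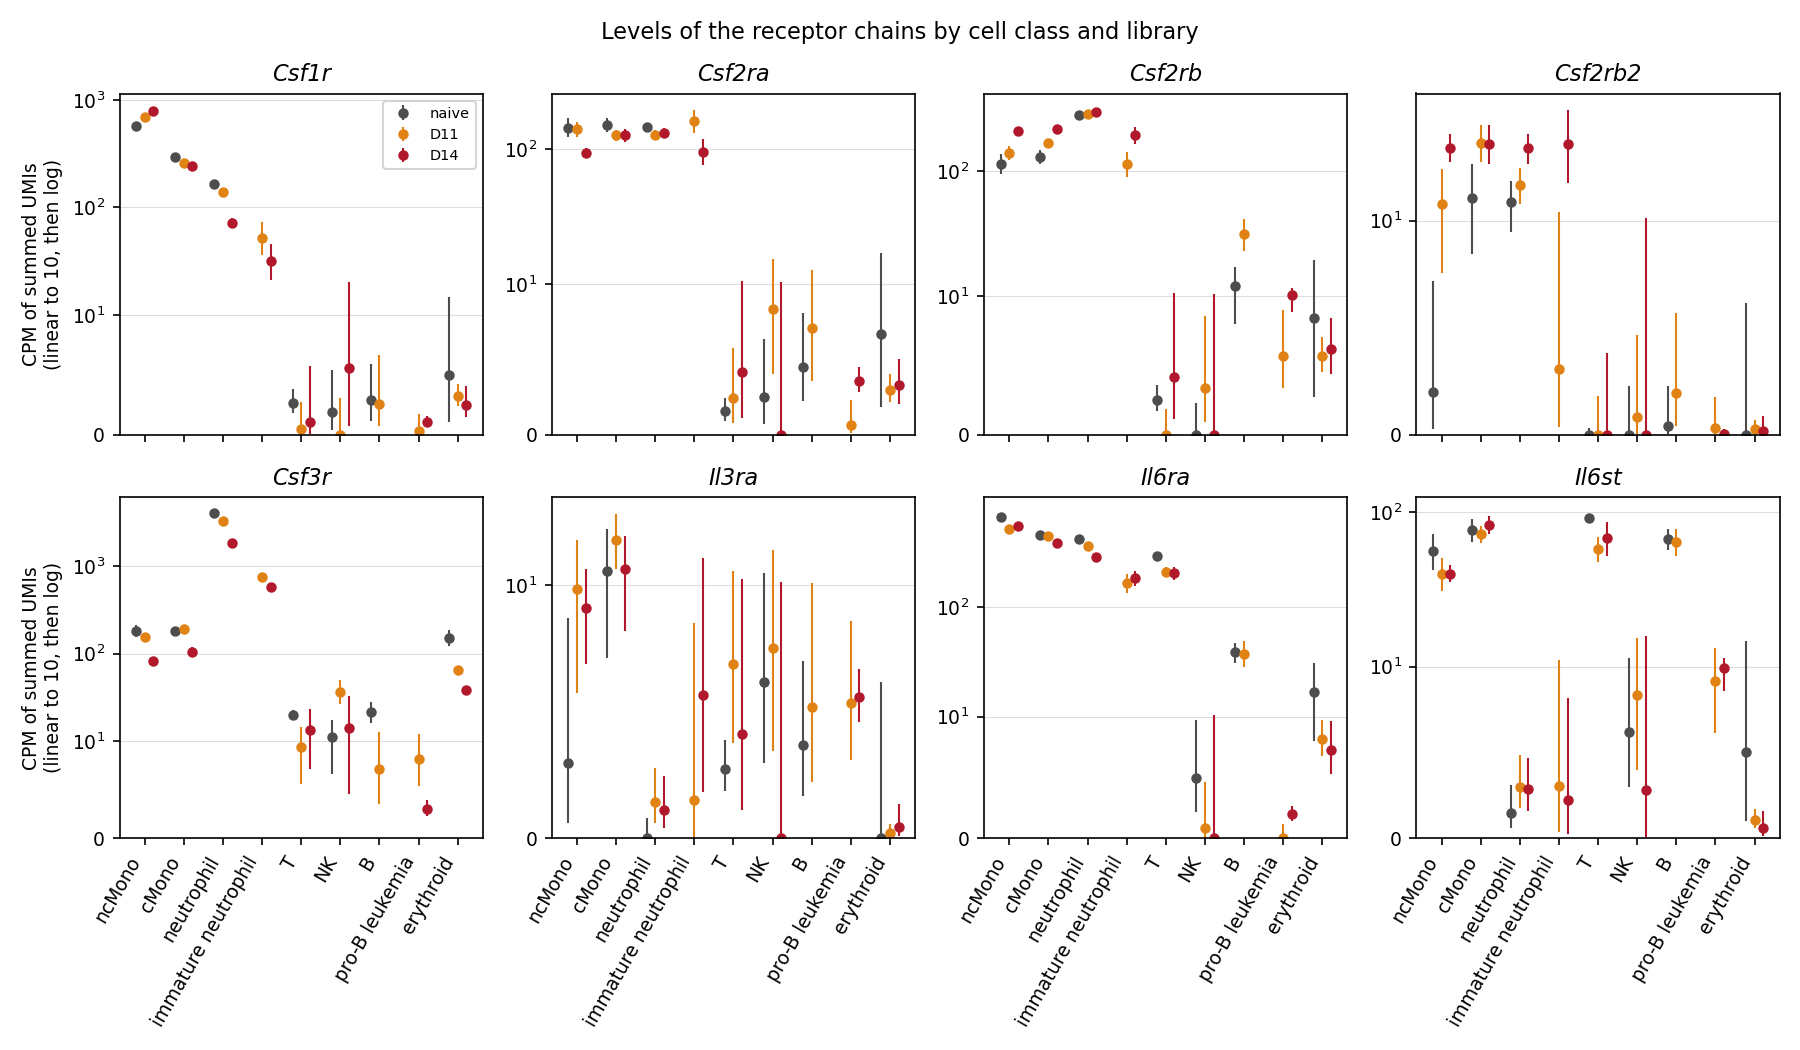
Level of each receptor chain in CPM of the summed UMIs (vertical axes, linear up to 10 CPM and logarithmic above), for cell classes of at least 50 barcodes in the naive, D11 and D14 libraries, with points for levels and bars for exact Poisson 95% intervals. Csf1r was highest in ncMonos and Csf3r in neutrophils in all 3 libraries, and the pro-B leukemia class lay at or under 10.2 CPM for every chain.

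Csf1r (ENSMUSG00000024621) was highest in ncMonos in every library. Its level in ncMonos was 568 CPM [522 to 616] in naive, 690.0 CPM [651 to 730.4] at D11 and 788 CPM [766 to 810.1] at D14. The intervals of the 3 libraries did not overlap, and the D14 level was the highest. Over naive, the log2 ratio of D11 was 0.28 [0.14 to 0.43] and that of D14 was 0.47 [0.35 to 0.60], a 1.39-fold difference that did not reach the fold needed for a call. In ncMonos without any neutrophil marker UMI, Csf1r was 555 CPM in naive and 793 CPM at D14, a log2 ratio of 0.51 [0.36 to 0.67].

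In cMonos, Csf1r had 296 CPM [272 to 322] in naive, 259 CPM [242 to 277] at D11 and 242 CPM [224 to 260.5] at D14, a log2 ratio of -0.29 [-0.46 to -0.13] at D14 that was not called. The ratio of ncMono over cMono thus differed between libraries, and reached 3.26 [3.01 to 3.53] at D14. In neutrophils, which carry Csf1r transcripts at a lower level, it had 164 CPM [153 to 176] in naive, 138 CPM [129 to 148] at D11 and 72.1 CPM [65.0 to 79.7] at D14. It fell in neutrophils, by 1.19 on the log2 scale at D14 [-1.37 to -1.01]. In the neutrophils without any monocyte marker UMI, the log2 ratio was -0.66 [-0.92 to -0.41], from 165 CPM in naive to 104.5 CPM at D14. Of the monocyte gate markers, Treml4 (175, 77.2 and 70.2 CPM in naive, D11 and D14) and Ly6c2 (28.6, 112 and 174 CPM) were highest in neutrophils. Whether this restriction removes monocyte RNA or other neutrophils was not tested.

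Immature neutrophils had less Csf1r than the neutrophil class of the same library, with 52.0 CPM [36.0 to 72.7] at D11 and 31.7 CPM [21.1 to 45.8] at D14. Among neutrophils at D14, those with 4 or more of the 6 granule markers had 49.3 CPM of Csf1r [42.1 to 57.4], and those with 1 to 3 markers had 107 to 123 CPM. Those without any granule marker had 98.4 CPM [42.5 to 194] from 8 UMIs, against 178 CPM [155 to 203] in naive. The log2 ratio among the latter was -0.85 [-2.08 to 0.15], so a difference there was not detectable at this depth. With 1, 2 and 3 granule markers it was -0.47 [-1.02 to 0.03], -0.38 [-0.80 to 0.03] and -0.40 [-0.90 to 0.12], and with 4 or more it was -0.62 [-1.69 to 0.72]. The ratio of Csf1r was thus below 0 in every group, with an interval that held 0 in each. How much of the ratio of -1.19 over all neutrophils lay within the groups was not tested.

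When each barcode was thinned to 1000 UMIs, a Csf1r UMI was found in 45.0% [35.9 to 54.3] of naive, 51.5% [44.3 to 58.8] of D11 and 50.4% [46.4 to 54.4] of D14 ncMonos. Without thinning, the shares were 96.7%, 96.4% and 98.9%, and so nearly every ncMono had a Csf1r UMI in each library. The thinned share in neutrophils was 14.3% [12.4 to 16.3], 13.4% [11.7 to 15.2] and 7.33% [5.81 to 9.10], with 7, 32 and 107 shallower barcodes left out. Naive T cells, which should lack Csf1r, had a thinned share of 0.331% and a median depth of 9236 UMIs, against 8046.5 in naive ncMonos and 3486 in naive neutrophils.

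Csf3r (ENSMUSG00000028859, chr4:126024550-126044440, plus strand) marked the neutrophils, whose level was 22.2 times that of cMonos in naive, 17.1 times at D11 and 17.4 times at D14. Neutrophils had 4017 CPM [3960 to 4075] in naive, 3279 CPM [3232 to 3326] at D11 and 1833 CPM [1797 to 1870] at D14. The levels were in the order of disease stage, with no overlap of intervals. Csf3r fell at D14 by 1.13 on the log2 scale [-1.17 to -1.10], to 0.456 of the naive level, and its log2 ratio at D11 was -0.29 [-0.32 to -0.26], short of a call. In neutrophils without any monocyte marker UMI, the D14 log2 ratio was -0.65 [-0.70 to -0.60], from 4096 to 2613 CPM. What this restriction removes was not tested. With TMM factors, a scaling that assumes most genes equal between libraries and that raised every log2 ratio of the neutrophils by 0.15 at D11 and 0.18 at D14, the D14 ratio was -0.96.

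The number of Csf3r UMIs per neutrophil was compared at a fixed depth. In barcodes thinned to 1000 UMIs, the median number of Csf3r UMIs was 4 in naive, 3 at D11 and 2 at D14. Neutrophils with no Csf3r UMI at that depth made up 3.49% in naive, 6.72% at D11 and 19.3% at D14. Those with 10 or more made up 2.54%, 1.80% and 0.489%. Without thinning, a Csf3r UMI was found in 100%, 99.5% and 95.4% of neutrophils.

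**Figure D2:**
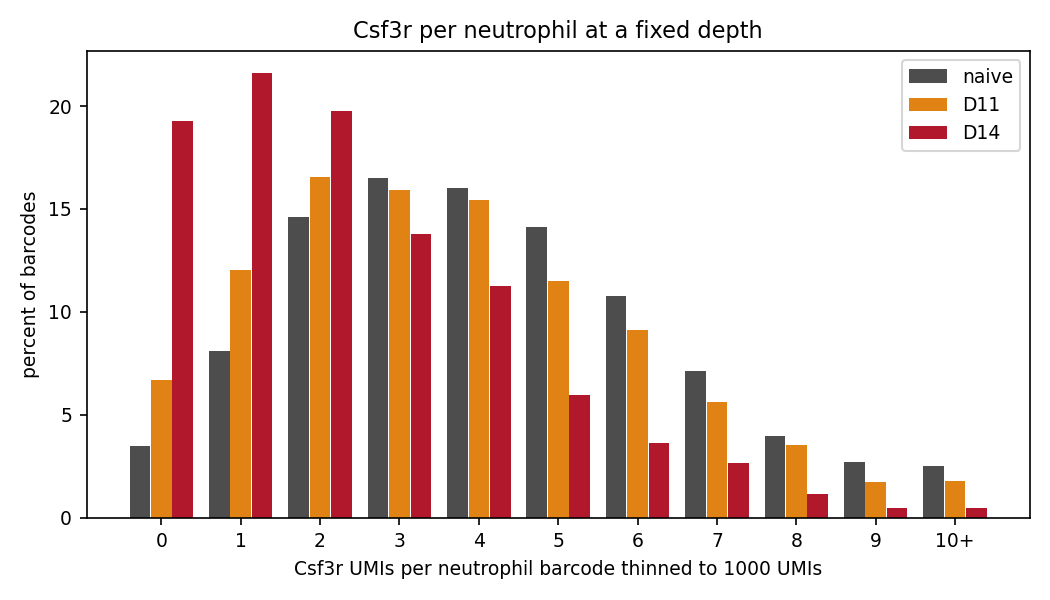
Share of neutrophil barcodes (percent, vertical axis) by the number of Csf3r UMIs in each barcode after thinning to 1000 UMIs (horizontal axis, last bin 10 or more) in the naive, D11 and D14 libraries. The D14 bars are highest at 1 UMI, where they reach 21.6%, and the naive bars at 3 UMIs, where they reach 16.5%.

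Csf3r levels ran opposite to the granule transcripts. In naive neutrophils, the level was 4277 CPM [4163 to 4393] without any of the 6 immature neutrophil markers, 4201 CPM with 1, 3806 CPM with 2, 3506 CPM with 3 and 1644 CPM [1393 to 1927] with 4 or more. At D14 the levels in the same order were 4119 CPM [3690 to 4585], 3418, 3151, 2707 and 1169 CPM [1133 to 1206]. Each library thus had its lowest Csf3r in the neutrophils richest in granule transcripts, whose share of the neutrophils was 0.947% in naive, 10.8% at D11 and 43.9% at D14.

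Before thinning, neutrophils without any granule marker had close Csf3r levels in all 3 libraries: 4277 CPM [4163 to 4393] in naive, 4280 CPM [4144 to 4418] at D11 and 4119 CPM [3690 to 4585] at D14. The log2 ratio of D14 over naive was -0.054 [-0.22 to 0.11] in them. In the groups with 1, 2, 3 and 4 or more markers it was -0.30, -0.27, -0.37 and -0.49, with intervals that left out 0 and sizes short of a call. The number of markers seen depends on depth, and the D14 barcodes with 0 markers had a median of 962 UMIs against 3004 in naive. With markers and Csf3r both read from barcodes thinned to 1000 UMIs, the level without markers was 4375 CPM [4227 to 4527] in 755 naive, 4253 CPM [4085 to 4426] in 569 D11 and 3831 CPM [3406 to 4294] in 77 D14 neutrophils. Thinned neutrophils with 1 marker had 4098 CPM [3902 to 4302] in naive and 3267 CPM [3027 to 3521] at D14. Those with 2 had 3694 CPM [3323 to 4095] and 2647 CPM [2460 to 2846]. Those with 3 or more had 1889 CPM [1100 to 3024] in 9 naive and 1419 CPM [1312 to 1533] in 458 D14 barcodes.

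**Figure D3:**
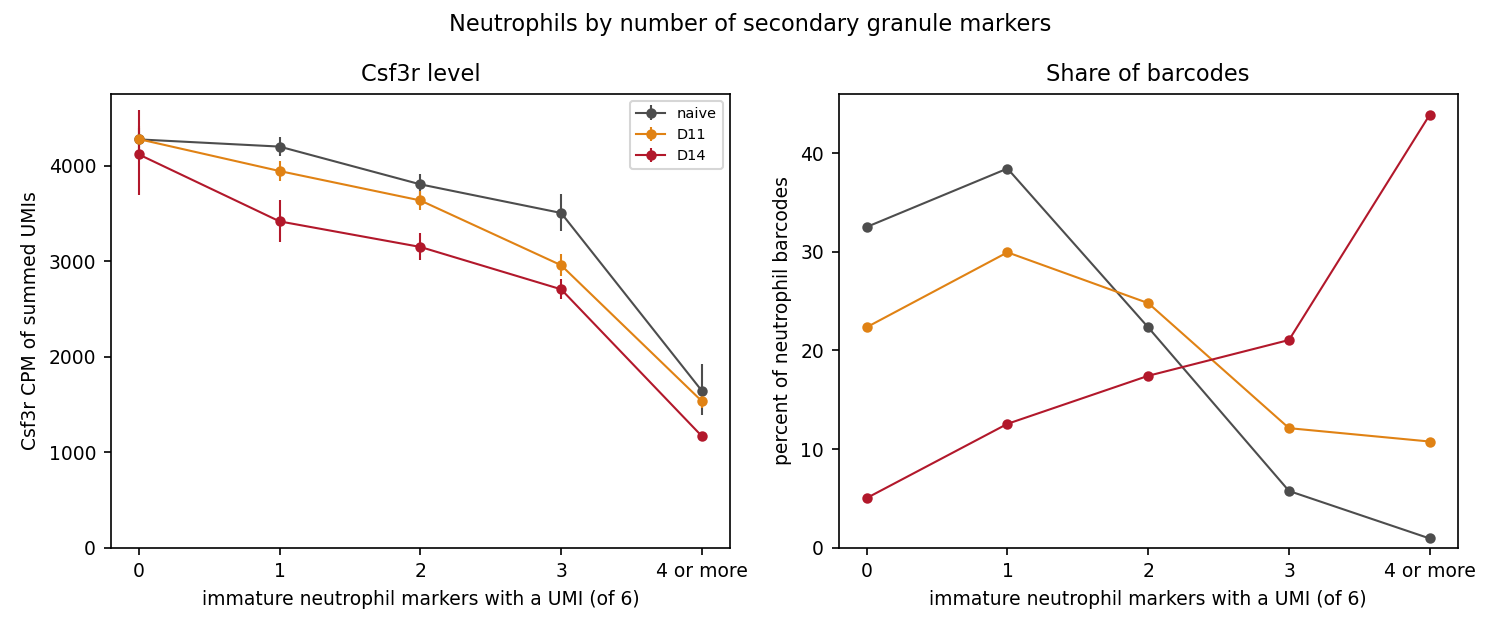
Left, Csf3r level of neutrophils (CPM of summed UMIs, vertical axis) by the number of the 6 immature neutrophil markers with a UMI (horizontal axis), with exact Poisson 95% intervals as bars. Right, the share of neutrophil barcodes (percent) in each of these groups. Without any marker the 3 libraries lie between 4119 and 4280 CPM, and the group with 4 or more markers holds 43.9% of D14 neutrophils. Barcodes were not thinned to equal depth.

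Immature neutrophils, a separate gate, had far less Csf3r than neutrophils. Their level was 741 CPM [676 to 810] at D11 and 577 CPM [527.5 to 629] at D14, a log2 ratio of -0.36 that was not called, and the 13 naive barcodes had 352 CPM [258 to 470]. The D11 ratio of immature over other neutrophils was 0.226 [0.206 to 0.247], and the D14 ratio was 0.314 [0.287 to 0.344].

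Both monocyte classes held Csf3r at a low level that also fell. In ncMonos, it was 182 CPM [156 to 210] in naive, 154 CPM [136 to 174] at D11 and 82.8 CPM [75.8 to 90.3] at D14, a fall by 1.13 on the log2 scale [-1.38 to -0.88]. In cMonos, it was 181 CPM [162 to 201] in naive, 191 CPM [177 to 207] at D11 and 105 CPM [93.9 to 118] at D14, a fall by 0.78 [-1.01 to -0.55]. In both classes the naive and D11 intervals overlapped and the D14 level lay below them. At 1000 UMIs per barcode, the share of ncMonos with a Csf3r UMI was 11.7% [6.53 to 18.8] in naive, 10.3% [6.41 to 15.5] at D11 and 10.5% [8.16 to 13.2] at D14, beside 61.7%, 53.1% and 52.0% unthinned and 1.08% in thinned naive T cells, so no order of the libraries was detectable in these shares.

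The level of Csf3r also differed with the neutrophil transcripts of the barcodes. In naive ncMonos, 5 of 120 barcodes had 2 or more neutrophil markers with a UMI, and these had 1150 CPM of Csf3r from 61 of the 183 UMIs. In ncMonos without any neutrophil marker UMI (92, 150 and 287 barcodes), Csf3r was 134 CPM [109 to 162] in naive, 112 CPM [94.7 to 132] at D11 and 82.0 CPM [71.7 to 93.5] at D14, a log2 ratio of -0.70 [-1.05 to -0.35] at D14. In cMonos without them it was 177 CPM in naive and 119 CPM at D14, a log2 ratio of -0.58 [-0.98 to -0.19], which no longer reached the fold of a call. Cells that should lack Csf3r also held some of it: T cells had 20.1, 9.36 and 13.5 CPM and hemoglobin-rich barcodes 151, 64.6 and 37.9 CPM in naive, D11 and D14. The part of such free RNA in the monocyte levels was not tested.

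Csf2ra (ENSMUSG00000059326, chr19:61223957-61228429, minus strand), the GM-CSF alpha chain, lay at like levels in the 3 myeloid classes of naive blood, with overlapping intervals of 145 CPM [122 to 170.4] in ncMonos, 152 CPM [135 to 171] in cMonos and 146 CPM [135 to 157] in neutrophils. In ncMonos it was 141 CPM [123 to 159] at D11 and 93.7 CPM [86.2 to 102] at D14, a fall by 0.63 on the log2 scale [-0.89 to -0.36]. With TMM factors this ratio was -0.52 and was not called. In cMonos it was 127 CPM at both D11 and D14, with a D14 log2 ratio of -0.26 [-0.49 to -0.03]. In neutrophils it was 129 CPM at D11 and 133 CPM at D14, with a D14 log2 ratio of -0.13 [-0.29 to 0.02].

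The common beta chain Csf2rb moved the other way in monocytes. In ncMonos it was 114 CPM [94.2 to 137] in naive, 140.0 CPM [123 to 159] at D11 and 207 CPM [196 to 219] at D14, and it rose by 0.86 on the log2 scale [0.59 to 1.15]. In cMonos it was 129.6 CPM [114 to 147] in naive, 166 CPM [153 to 181] at D11 and 215 CPM [198 to 232] at D14, and it rose by 0.73 [0.51 to 0.95]. The D14 level was the highest in both classes, and its interval did not overlap that of naive. The cMono class also differed between libraries in the summed markers of progenitors (20.3, 85.8 and 257 CPM in naive, D11 and D14). It differed in those of immature neutrophils (204, 219 and 468 CPM) and in median depth (12708, 13660 and 20659 UMIs). The ncMono class differed in the summed markers of pro-B cells (1.98, 4.07 and 53.0 CPM) and in those of cMonos (265, 220 and 107 CPM). Their part in the levels of the monocyte classes was not tested. Over the whole class, neutrophils kept close levels, with 282 CPM [267 to 298] in naive, 288 CPM [274 to 302] at D11 and 294 CPM [279 to 309] at D14, a log2 ratio of 0.06 [-0.05 to 0.17] at D14. By granule markers, before thinning, the neutrophil log2 ratio at D14 was -0.03 [-0.72 to 0.59] with 0, 0.45 [0.15 to 0.75] with 1 and -0.00092 [-0.27 to 0.27] with 2. With 3 it was 0.82 [0.47 to 1.19] and with 4 or more 0.77 [0.015 to 1.65], both past 1.5-fold. Markers and Csf2rb were also read from barcodes thinned to equal depth. Without markers, the level was then 262 CPM [227 to 301] in naive and 403 CPM [274 to 571] at D14. It was 329 CPM [275 to 391] and 338 CPM [264 to 426] with 1, and 245 CPM [157 to 364] and 356 CPM [289 to 434] with 2. With 3 or more it was 111 CPM [2.81 to 619] from 1 naive UMI and 288 CPM [241 to 342]. The naive and D14 intervals overlapped in each thinned group. The part of the granule-rich neutrophils in the class ratio was not tested.

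The rise in monocytes was also present in those without neutrophil transcripts. Among barcodes with 0 neutrophil markers, the D14 log2 ratio of Csf2rb was 0.83 [0.50 to 1.17] in ncMonos and 0.62 [0.28 to 0.96] in cMonos. Neutrophils had 2.47 times the Csf2rb level of ncMonos in naive [2.04 to 3.02] and 1.42 times at D14 [1.31 to 1.53]. At a depth of 1000 UMIs, the share of ncMonos with a Csf2rb UMI was 10.8% [5.90 to 17.8] in naive and 17.5% [14.6 to 20.8] at D14, beside 53.3% and 80.4% unthinned. The thinned share in naive T cells was 0.414%.

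Csf2rb2, the IL-3-specific beta chain, was low in every class of at least 50 barcodes and rose in all 3 myeloid classes by D14. In ncMonos Csf2rb2 had 2 UMIs (1.98 CPM) in naive, 21 UMIs (12.2 CPM) at D11 and 150 UMIs (23.9 CPM [20.3 to 28.1]) at D14. The log2 ratio at D14 was 3.59 [1.71 to 6.65], and its width follows from the 2 naive UMIs. That at D11 was 2.62 [0.59 to 5.76], at a mean under 10 CPM. In cMonos it was 13.2 CPM [8.44 to 19.6] in naive, 25.3 CPM [20.2 to 31.3] at D11 and 25.05 CPM [19.6 to 31.6] at D14, with log2 ratios over naive of 0.94 [0.27 to 1.66] and 0.93 [0.24 to 1.66]. In neutrophils it was 12.4 CPM [9.46 to 16.1] in naive, 15.3 CPM [12.2 to 18.9] at D11 and 23.8 CPM [19.8 to 28.3] at D14, a log2 ratio of 0.93 [0.47 to 1.41].

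By D14 the Csf2rb2 levels of cMonos, ncMonos, neutrophils and immature neutrophils lay between 23.8 and 25.05 CPM with overlapping intervals. T cells had 0 UMIs of Csf2rb2 in each library, out of 11592778, 2029757 and 964886 UMIs, and the pro-B leukemia class had 1 UMI at D11 and 1 at D14. In naive ncMonos the interval of Csf2rb2 [0.240 to 7.17] overlapped that of B cells, which had 1 UMI.

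Immature neutrophils were compared between D11 and D14 only, since the naive library had 13. Of 6 chains examined, 2 rose and 1 fell, beside 8.00% and 3.62% of 5861 genes. Csf2rb rose from 113 CPM [88.9 to 142] to 193 CPM [165 to 224], a log2 ratio of 0.77 [0.36 to 1.18]. Csf2rb2 rose from 2 UMIs (3.06 CPM) to 22 UMIs (24.9 CPM), a log2 ratio of 3.03 [1.001 to 6.16]. Csf2ra fell from 162 CPM [133 to 196] to 96.3 CPM [76.9 to 119], a log2 ratio of -0.75 [-1.18 to -0.33].

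Basophils, which answer to IL-3, were too few for a comparison, with 12, 11 and 3 barcodes, but held the highest levels of both beta chains. By library, their Csf2rb was 1158 CPM [917 to 1443] in naive, 884 CPM [684 to 1124] at D11 and 348 CPM [190 to 584] at D14. The D14 interval overlapped that of D14 neutrophils. Over the 26 barcodes of all libraries, Csf2rb was at 868 CPM [738 to 1014], Csf2rb2 at 366 CPM [283 to 465] and Il3ra at 54.6 CPM [26.2 to 100.4]. Csf1r and Il6st had 0 UMIs among their 183168 UMIs. A Csf2rb UMI was found in 100%, 90.9% and 100% of them, and a Csf2rb2 UMI in 91.7%, 72.7% and 66.7%.

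Il3ra (ENSMUSG00000068758, chr14:14346275-14356011, plus strand), the IL-3 alpha chain, was at most 15.8 CPM in every class of at least 50 barcodes. In cMonos it had 21, 53 and 34 UMIs, or 11.5 CPM [7.14 to 17.6] in naive, 15.8 CPM [11.8 to 20.6] at D11 and 11.8 CPM [8.19 to 16.5] at D14, with overlapping intervals. In ncMonos it had 3, 17 and 57 UMIs, or 2.98 CPM [0.614 to 8.70], 9.87 CPM [5.75 to 15.8] and 9.10 CPM [6.89 to 11.8], and the log2 ratio of 1.61 at D14 [-0.01 to 3.93] did not leave out 0. Neutrophils had 0 UMIs out of 4657066 in naive [0 to 0.792 CPM], where 3 UMIs would be 0.644 CPM, and 8 and 6 UMIs in leukemia. At these depths no difference in Il3ra between libraries was detectable in the monocyte classes.

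Il6ra (ENSMUSG00000027947, chr3:89864059-89913196, minus strand), the IL-6 alpha chain, was present in all 3 myeloid classes and in T cells. In ncMonos it was 658 CPM [609 to 709.95] in naive, 512 CPM [479 to 547] at D11 and 542 CPM [524 to 561] at D14. In cMonos it was 457 CPM [426 to 489], 445 CPM [423 to 469] and 385 CPM [362 to 408], and in neutrophils 417 CPM [399 to 436], 356 CPM [341 to 372] and 287 CPM [273 to 302]. The D14 levels lay below naive in each class, by log2 ratios of -0.28 [-0.40 to -0.16], -0.25 [-0.38 to -0.12] and -0.54 [-0.64 to -0.44], none of which reached the fold of a call.

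Among neutrophils, Il6ra was lowest with 4 or more granule markers in each library, as Csf3r was. Before thinning, it was 445 CPM [409 to 483] without markers and 270.3 CPM [175 to 399] with 4 or more in naive. At D14 it was 566 CPM [414 to 754] and 235 CPM [218 to 251]. Csf2ra did not show this order, with 123 CPM [59.0 to 226] and 133 CPM [121 to 145] in the same D14 groups. In barcodes thinned to equal depth, Il6ra was again lowest with 3 or more markers in each library. The thinned D14 level was 364 CPM [242 to 526] with 0, 424 CPM [340 to 522] with 1 and 435 CPM [361 to 520] with 2. With 3 or more it was 284 CPM [237 to 337], an interval that overlapped only that of the group with 0. In naive, the thinned group with 3 or more held 1 Il6ra UMI in 9 barcodes.

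The shared chain Il6st (ENSMUSG00000021756, chr13:112464070-112510086, plus strand) was found in monocytes, T cells and B cells and was nearly missing from neutrophils. In ncMonos it was 55.6 CPM [42.0 to 72.2] in naive, 39.5 CPM [30.7 to 50.1] at D11 and 39.9 CPM [35.1 to 45.2] at D14. In cMonos it was 76.3 CPM [64.2 to 90.1], 71.8 CPM [63.0 to 81.4] and 82.1 CPM [72.0 to 93.3], and the cMono level was above that of ncMonos in the leukemic libraries, with an ncMono over cMono ratio of 0.486 [0.405 to 0.583] at D14. Neutrophils had 7, 17 and 15 UMIs, or 1.503 CPM [0.604 to 3.10], 3.02 CPM [1.76 to 4.84] and 2.85 CPM [1.60 to 4.70], although they held Il6ra at 287 to 417 CPM.

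T and B cells held both IL-6 receptor chains, and NK cells held little of either, with Il6ra at 4.95, 0.835 and 0 CPM and Il6st at 6.19, 8.35 and 2.81 CPM in naive, D11 and D14. In T cells, which numbered 1212, 258 and 110 barcodes, Il6ra was 291 CPM [281 to 301] in naive, 209 CPM [190 to 230] at D11 and 203 CPM [176 to 234] at D14, and Il6st was 91.7 CPM [86.3 to 97.4], 57.15 CPM [47.2 to 68.5] and 67.4 CPM [52.0 to 85.9]. Of 3 chains examined in T cells at D11, 0 were called higher and 2 lower, beside 10.0% and 5.04% of 7915 genes: Il6st, which fell by 0.68 on the log2 scale [-0.97 to -0.40], and Csf3r, which fell by 1.10 [-1.86 to -0.43]. At D14, 0 of 3 were called in T cells, beside 12.8% higher and 5.65% lower of all genes. In NK cells 1 chain could be examined, Csf3r, which rose at D11 from 11.1 to 36.8 CPM (log2 ratio 1.72 [0.90 to 2.60]), beside 3.22% of genes called higher and 4.06% lower, and was not called at D14, beside 6.08% and 5.24%. The part of free RNA in these Csf3r levels was not tested. In B cells, Csf2rb, which also serves the IL-5 receptor, was 11.9 CPM [7.97 to 17.1] in naive and 31.1 CPM [22.9 to 41.2] at D11, a log2 ratio of 1.39 [0.69 to 2.10], and Csf3r fell from 21.3 to 7.13 CPM, the 2 of 4 chains that were called, beside 4.74% of genes called higher and 4.63% lower. The Csf2rb of the 43 B cells at D14 was 49.6 CPM [29.9 to 77.5], and that of T cells was at most 4.15 CPM in any library.

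The leukemic cells, gated on pro-B genes such as Igll1, Vpreb1 and Dntt, held little of any chain. The 108 barcodes at D11 and 653 at D14 had median depths of 25435 and 30195 UMIs. Csf1r had 1 UMI at D11 and 21 at D14, which is 1.04 CPM [0.641 to 1.58] out of 20283850 UMIs. Against this stood 1.04 CPM [0.0262 to 5.77] from 1 UMI in D14 T cells and 788 CPM in D14 ncMonos. Csf3r had 8.19 CPM at D11 and 3.06 CPM at D14, which was under the level in T cells of either library. At D14, Csf2rb had 206 UMIs and 10.2 CPM [8.82 to 11.6], Il6st had 201 UMIs and 9.91 CPM [8.59 to 11.4], and Il3ra had 113 UMIs and 5.57 CPM [4.59 to 6.70]. Il3ra was found in 15.6% of these barcodes and in 3.64% of D14 T cells, whose median depth was 7771 UMIs, but at 1000 UMIs per barcode the shares were 0.308% [0.0373 to 1.11] and 0.909% [0.0230 to 4.96].

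**Figure D4:**
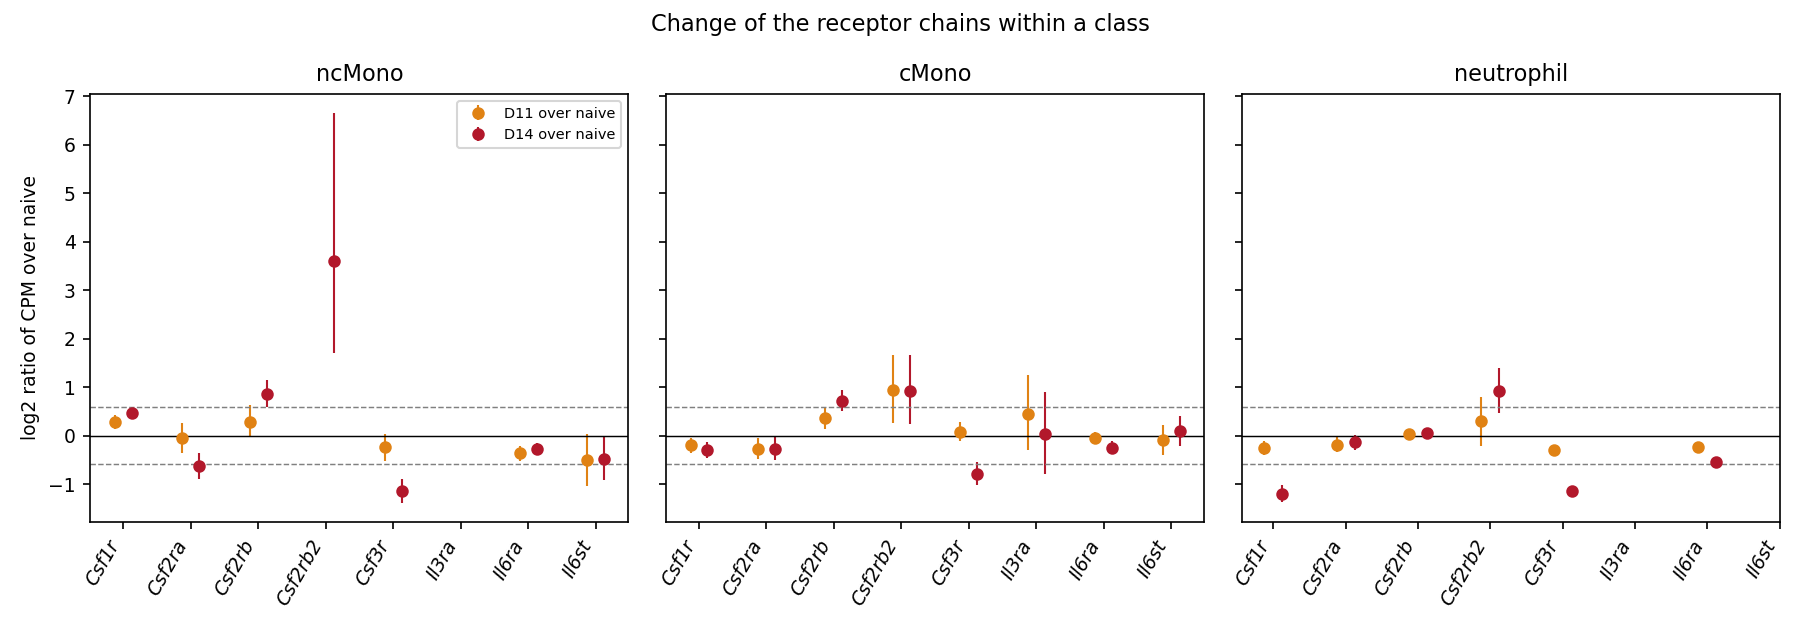
Log2 ratio of the level of each receptor chain over naive (vertical axis) in ncMonos, cMonos and neutrophils at D11 and D14, for chains whose mean over the compared libraries reached 10 CPM, with exact 95% intervals as bars. Dashed lines mark 1.5-fold. Csf3r lies at -1.13 in ncMonos and neutrophils and at -0.78 in cMonos at D14, and Csf2rb lies above the upper line in both monocyte classes and at 0.06 in neutrophils.

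The genes whose levels were most like each chain were ranked by the Pearson correlation of log2(CPM + 1) over the 24 sums of a class in a library, which share libraries and depth. For Csf1r they were Tlr8 (0.970), Mpeg1 (0.969) and Cbr3 (0.965), and for Csf3r they were Clec4d (0.967), C5ar1 (0.962) and Trpm2 (0.961). For Csf2rb, Spi1 (0.980) and Pstpip2 (0.965) were among them. For Csf2rb2 they were B4galt6 (0.936), C3 (0.929) and Wfdc17 (0.926), and for Csf2ra Abcd2 (0.971), Svip (0.965) and I830077J02Rik (0.964). The IL-6 receptor chains had lower values, with Zfp467 (0.918), Ifi27l2a (0.912) and Ampd3 (0.895) for Il6ra and Zdhhc23 (0.921), Bmyc (0.913) and Cryl1 (0.911) for Il6st. These values describe a pattern over classes and were not tested.

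Of the 10 ligands of the receptors and their relatives, Csf1 and Osm had a mean of at least 10 CPM in a myeloid class, and only in neutrophils. Csf1, which encodes M-CSF, was 470 CPM in naive, 294 CPM at D11 and 164 CPM at D14, and it fell by 1.52 on the log2 scale at D14 [-1.64 to -1.41]. Osm, which encodes oncostatin M, was 18.7, 53.2 and 86.5 CPM and rose by 2.21 [1.88 to 2.56]. Transcripts of Il3 and Il5 had 0 UMIs in every class of at least 50 barcodes, and those of Csf2, Csf3 and Il6 had at most 4.

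Among 9 receptors that share a chain with the group or are near relatives, 1 could be examined in ncMonos at D14 and rose: Lifr, the LIF receptor that pairs with gp130. It was 43.7 CPM in naive, 49.95 CPM at D11 and 317 CPM at D14, a log2 ratio of 2.86 [2.43 to 3.32]. In cMonos, 2 could be examined and 1 fell, Flt3, the FLT3 ligand receptor and a dendritic cell marker of the gates, from 34.1 CPM in naive to 12.2 CPM at D14, a log2 ratio of -1.48 [-2.12 to -0.86]. The D14 Lifr level in cMonos was 46.3 CPM, close to the 48.9 CPM in naive. At D11, Lifr was called lower in cMonos, with a log2 ratio over naive of -0.65 [-1.07 to -0.22] with TMM factors.

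Of the 14 kinases and signal transducers, 13 could be examined in each myeloid class, and at D14 0 rose and 1 fell in ncMonos (Stat5a), 0 changed in cMonos, and 1 rose (Shc1) and 1 fell (Stat5a) in neutrophils. The shares of all genes called higher and lower at D14, against which this count and those of the other lists stand, were 7.83% and 9.02% in ncMonos, 12.7% and 9.90% in cMonos, and 13% and 26.3% in neutrophils. Of the 12 genes listed under inhibitors and negative feedback, 3 of 8 examined rose in ncMonos and 2 of 9 in cMonos (Socs3 and Ptpn11), with 0 lower in both. Socs3, which blocks signals from gp130 and from the G-CSF receptor, rose in both, from 64.5 to 159.7 CPM in ncMonos (log2 ratio 1.31 [0.95 to 1.69]) and from 25.3 to 56.4 CPM in cMonos (1.16 [0.68 to 1.66]). Cblb, an E3 ligase, rose in ncMonos from 796 to 1438 CPM, and Dok1, an adaptor, from 53.6 to 84.9 CPM. In neutrophils 1 of 10 genes of this list rose (Dok2) and 3 fell (Inpp5d, Dok1 and Slfn2), close to the 13% and 26.3% of all genes. The medians of the list were 0.28 in ncMonos, 0.23 in cMonos and -0.06 in neutrophils, beside -0.02, 0.05 and -0.23 for all genes. The list was set by name, and whether each of its genes, Ptpn11 among them, dampens or carries signals in these cells was not tested.

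Of 8 STAT targets, 7 could be examined in ncMonos at D14, and 3 rose (Pim1, Bcl3 and Ccnd2) and 1 fell (Cdkn1a), beside 7.83% and 9.02% of all genes. Pim1, a survival kinase, went from 179.6 to 392 CPM in ncMonos (log2 ratio 1.13 [0.91 to 1.35]) and from 183 to 319 CPM in cMonos (0.80 [0.62 to 0.98]). In cMonos 2 of 6 rose (Pim1 and Bcl3) and 0 fell, beside 12.7% and 9.90% of all genes. In neutrophils 1 of 6 rose (Bcl2l1) and 1 fell (Ccnd2). Of 10 factors known to bind the Csf1r or Csf3r loci, 0 of 7 changed in ncMonos, 2 of 9 rose (Cebpe and Nr4a1) and 1 fell (Cebpa) in cMonos, and 1 of 8 rose (Cebpe) and 2 fell (Spi1 and Cebpa) in neutrophils, where 13% of all genes were higher and 26.3% lower. Spi1, which encodes PU.1, went from 1014 to 667 CPM in neutrophils, a log2 ratio of -0.60 [-0.67 to -0.54]. Cebpe, a factor of the granule stage, went from 18.0 to 41.1 CPM, a log2 ratio of 1.19 [0.82 to 1.57]. Of 4 genes listed for the shedding of receptors or its regulation, 3 could be examined in each class. Of these 1 changed, Adam17 in neutrophils, from 219 to 146 CPM (-0.59 [-0.72 to -0.45]).

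With TMM factors, 6 of the 31 calls in these lists at D14 were lost and 4 were gained (Shc1 in ncMonos, Irf8 in cMonos, and Socs1 and Ptpn11 in neutrophils). In neutrophils the log2 ratio of Spi1 was then -0.43, that of Cebpa -0.42, that of Adam17 -0.41 and that of Inpp5d -0.45. In ncMonos that of Stat5a was -0.61 [-1.20 to 0.0060] and that of Cdkn1a -0.57.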

How the data were processed

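The authors prepared 10x Genomics 3′ v3 libraries after red cell lysis and dead cell removal, and counted reads with Cell Ranger. The submitters' processing notes name version 7.1.0 and build mm10, and the matrix headers name version 5.0.1. The deposited values are raw UMI counts per gene and barcode, without normalization, in filtered matrices. Barcodes under 200 genes or over 10% mitochondrial UMIs were left out. Hemoglobin at 50% of UMIs or more marked red cells, and other classes needed 3 of 6 markers and a lead of 2. Doublets were not removed. Free RNA was not subtracted. UMIs were summed per class and library, without testing, as each condition had 1 library. Levels have exact Poisson intervals, ratios exact conditional binomial and shares Clopper-Pearson intervals (95%, scipy 1.17.1), for counting error only. A level of 0 was set to 3 UMIs for ratios. The receptor chains, gene lists and gates were chosen with earlier results of these data known. Named genes were every chain, the 3 genes most like each, of which 1 is not reported here, and the pathway lists. Alternatives used scanpy 1.11.5 (Scrublet) and edgeR 4.0.16 (TMM factors only). Positions are from GENCODE (GRCm38). The ratios, their intervals and the calls were tested on simulated class sums with counting error only. Gates, free RNA and differences between libraries were not simulated.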

Additional observations from a re-analysis of the deposited data

Results flagged for a closer look

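The log2 ratio of Csf1r at D14 over naive took opposite signs between classes, at 0.47 in ncMonos, -0.29 in cMonos and -1.19 in neutrophils, and only the last passed the rule for a change. The difference between the classes was not tested, since each condition had 1 library.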

How the results depend on the processing

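No paired analysis was possible because each condition had 1 library. None of the 11 ratios over naive called in ncMonos, cMonos and neutrophils changed sign over 112 values under alternatives, and the calls in other classes were not recomputed. The D14 log2 ratio of Csf3r in ncMonos was -0.71 with stricter gates, -0.81 with the highest doublet scores removed and -0.70 without barcodes holding neutrophil marker UMIs. That of Csf1r in neutrophils was -0.89 as a mean of per-cell CPM, -0.85 in barcodes without immature markers (8 UMIs at D14; -0.47, -0.38 and -0.40 with 1, 2 and 3 of them) and -0.66 in those without monocyte markers. That of Csf3r in neutrophils was -1.09 without the highest doublet scores, -0.83 as a mean of per-cell CPM and -0.96 with TMM factors. It was -0.054 without immature markers, in barcodes not thinned to equal depth, and -0.65 without monocyte markers. The restrictions on marker UMIs, and TMM factors for the pathway lists, were chosen after seeing the data. The chains called higher in ncMonos at D14 numbered 1, in place of 2, with stricter gates, with a 2-fold rule and with a minimum of 50 CPM, and those called lower 1 with TMM factors and with a 2-fold rule. In cMonos, 0 were called higher with a 2-fold rule and 1 with a minimum of 50 CPM, and 0 lower without neutrophil markers and with a 2-fold rule. In neutrophils, 0 were called higher without immature markers, with a 2-fold rule and with a minimum of 50 CPM, and 0 lower without immature markers. The causes were not tested. Depth limits Il3ra, Csf2rb2 and the 57 D14 neutrophils without immature markers.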
